A study of Mus musculus with 3 samples.

Results

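Open chromatin in mouse embryonic stem cells expressing Halo-Sox2a was compared with that of control cells, using 1 ATAC-seq peak list from each. Overlapping peaks of these 2 lists, by at least 1 bp, were merged into regions. The merge gave 99502 regions from 83995 Halo-Sox2a peaks and 72638 control peaks. A region with peaks of the Halo-Sox2a list only is called gained, one with control peaks only is called lost, and one with peaks of both lists is called shared. The words describe the presence of called peaks in these libraries and carry no test.

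Both libraries came from lines derived from CGR8, a mouse embryonic stem cell line, and were among 3 libraries of the series. The Halo-Sox2a cells were the line SES5.1, treated with 70 ng/mL doxycycline for 20 h to induce a doxycycline-inducible transgene, and their Halo-tagged protein was stained with 50 nM Halo-SiR dye before cell sorting. The control cells were the line SES11, for which the labels give the treatment as control, name no transgene or doxycycline dose, and do not say whether the cells were stained or sorted. All cells were grown in serum medium with leukemia inhibitory factor (LIF), the GSK3 inhibitor CHIR99021 and the MEK inhibitor PD184352, so both sides of the comparison carry these agents. About 50000 cells entered each transposition, and reads were 75-bp pairs. The labels name Sox2a without describing how it differs from Sox2. With 1 line and 1 library a side, the transgene, the line, the doxycycline, the sort and the library cannot be told apart, there is no replicate error to set a difference against, and the comparison has no p-value.

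Sox2 belongs to the SOX family, whose HMG domain bends DNA at short sites of the form ACAAAG or ACAATG. In embryonic stem cells Sox2 binds next to the POU factor Oct4 (gene Pou5f1) at composite SOX-OCT sites, which occur at enhancers of pluripotency genes such as Nanog and at those of Sox2 and Pou5f1 themselves. Sox2 is counted among the pioneer factors, which can bind sites wrapped in nucleosomes and open them, and ATAC-seq reads opening through the insertions that the transposase Tn5 makes in exposed DNA.

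Promoter windows of 5 genes, from 250 bases before to 50 bases after the RefSeq start on GRCm38.p6, show how the classes look at the level of sequence. Each is given 5′ to 3′ on the gene's strand, with matches to the SOX, octamer and SOX-OCT motifs, on either strand, in capitals. Nanog, a core pluripotency factor, is shown because both lists had a peak over the whole window and because it is among the few promoters with a composite SOX-OCT motif. Sox2 is shown because the control list alone covered its promoter. 4930522H14Rik and Tfap2a, the latter a trophoblast and neural crest factor, had promoter peaks in gained regions. Fbln5, an extracellular matrix protein, had the highest-scoring promoter peak among protein-coding genes in a lost region.
Nanog: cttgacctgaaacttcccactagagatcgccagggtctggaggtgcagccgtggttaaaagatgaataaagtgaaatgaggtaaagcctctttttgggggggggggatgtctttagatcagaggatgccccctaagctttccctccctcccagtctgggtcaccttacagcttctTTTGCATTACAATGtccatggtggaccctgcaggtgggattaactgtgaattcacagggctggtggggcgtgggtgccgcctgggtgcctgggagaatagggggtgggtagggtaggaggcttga
Sox2: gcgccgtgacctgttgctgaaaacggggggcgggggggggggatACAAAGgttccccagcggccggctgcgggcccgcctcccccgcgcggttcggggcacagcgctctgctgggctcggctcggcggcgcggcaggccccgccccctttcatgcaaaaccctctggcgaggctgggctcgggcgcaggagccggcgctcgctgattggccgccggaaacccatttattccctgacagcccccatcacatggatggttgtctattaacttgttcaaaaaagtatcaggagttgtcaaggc
4930522H14Rik: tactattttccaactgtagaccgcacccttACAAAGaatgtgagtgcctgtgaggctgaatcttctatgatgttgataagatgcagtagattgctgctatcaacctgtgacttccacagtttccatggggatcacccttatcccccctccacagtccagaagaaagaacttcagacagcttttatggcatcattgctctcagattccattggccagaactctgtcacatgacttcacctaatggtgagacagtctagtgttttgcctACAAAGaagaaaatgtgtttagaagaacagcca
Tfap2a: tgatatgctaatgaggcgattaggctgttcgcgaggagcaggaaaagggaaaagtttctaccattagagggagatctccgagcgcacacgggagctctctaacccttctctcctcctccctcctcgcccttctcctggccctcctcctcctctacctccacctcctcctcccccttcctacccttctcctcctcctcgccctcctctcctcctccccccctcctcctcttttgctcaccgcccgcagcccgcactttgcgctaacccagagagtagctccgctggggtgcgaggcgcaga
Fbln5: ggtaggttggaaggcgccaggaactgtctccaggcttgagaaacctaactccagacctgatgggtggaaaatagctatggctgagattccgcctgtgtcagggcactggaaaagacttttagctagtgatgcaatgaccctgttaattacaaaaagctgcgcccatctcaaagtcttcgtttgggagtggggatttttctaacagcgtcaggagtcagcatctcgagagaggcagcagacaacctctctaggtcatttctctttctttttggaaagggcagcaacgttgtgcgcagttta
The Nanog window lies at chr6:122707239-122707538 (+), the Sox2 window at chr3:34649745-34650044 (+) and the 4930522H14Rik window at chr4:109531155-109531454 (-). The Tfap2a window lies at chr13:40733746-40734045 (-) and the Fbln5 window at chr12:101818435-101818734 (-). All 300 bases of the Nanog window were under the peak of each list, with scores of 113 in Halo-Sox2a and 116 in control. The Sox2 window had 300 bases under the control peak and 0 under a Halo-Sox2a peak. The Halo-Sox2a peak covered 290 bases of the 4930522H14Rik window and 300 of the Tfap2a window, and the control peak covered 216 bases of the Fbln5 window. The windows of Tfap2a and Fbln5 held no match to these motifs, and that of 4930522H14Rik held 2 matches to ACAAAG.

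The depth of the libraries is unknown, since the lists give peaks and scores but no read counts. The score is the authors' whole number for each peak, with a lowest value of 13 in both lists and medians of 101 in Halo-Sox2a and 85 in control, and it was used only to rank peaks within a list. The embryonic stem cell label was checked on promoters: of 16 pluripotency genes with a promoter window, 13 had a peak in both lists, among them Nanog, Esrrb, Klf4 and Zfp42. Of the rest, Sox2 had a control peak only, and Pou5f1 and Tdgf1 had none in either list. The Zfp42 promoter, a marker of naive embryonic stem cells, scored 811 in Halo-Sox2a and 782 in control, at percentiles 99.07 and 99.78 of their lists. Promoter peaks alone did not separate cell types. Over all genes 46.0% of promoters, and over protein-coding genes 60.3%, had a peak in both lists, as did 11 of 14 neural promoters. Of the other markers, 3 of 5 fibroblast promoters (Col1a2, Twist1 and Twist2) and 3 of 6 blood promoters (Cd34, Tal1 and Runx1) also had a peak in both lists. Col3a1, Prrx1, Ptprc and Gata1 had none in either.

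Of the 99502 regions, 28039 were gained, which is 28.2% (Wilson 95% interval 27.9 to 28.5, counting error only), and 15957 were lost, which is 16.0% (15.8 to 16.3). The remaining 55506 (55.8%) were shared. Gained and lost regions were narrow and low: the median width was 324 bp for gained and 281 bp for lost against 696 bp for shared regions. The median gained region stood at percentile 26.4 of the Halo-Sox2a scores and the median lost region at percentile 22.5 of the control scores, against 64.0 and 60.4 for shared regions in the same lists. Most shared regions joined 1 peak of each list, so the surplus of gained over lost regions is largely set by the longer Halo-Sox2a list. Lists of equal length must give near-equal numbers. When the Halo-Sox2a list was shortened to its 72638 highest-scoring peaks, 20088 regions were gained and 19235 lost. Unshared regions were rarely the edge of a shared one: 5.13% of gained and 6.93% of lost regions lay within 500 bp of a peak of the other list, and the median gaps were 7.77 and 8.05 kb. Among shared regions, 53954 joined 1 peak of each list, and the Halo-Sox2a peak was the wider one in 33234 (61.6%).

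Shared regions lay at gene starts far more often than regions of 1 list. A gene start was within 1 kb of 31.2% (30.8 to 31.6) of shared regions, against 8.40% (8.08 to 8.73) of gained and 9.77% (9.32 to 10.2) of lost regions. Gained regions lay mainly inside genes, at 55.8% (55.2 to 56.4), against 45.5% (44.8 to 46.3) of lost and 38.0% of shared regions. Of the gained regions inside genes, 88.3% were in protein-coding genes. Lost regions were as common outside genes, at 44.7% (43.9 to 45.5), as inside them, while 35.8% of gained regions were outside. The order held in lists of equal size, where 56.5% of gained and 45.7% of lost regions were inside genes.

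**Figure D1:**
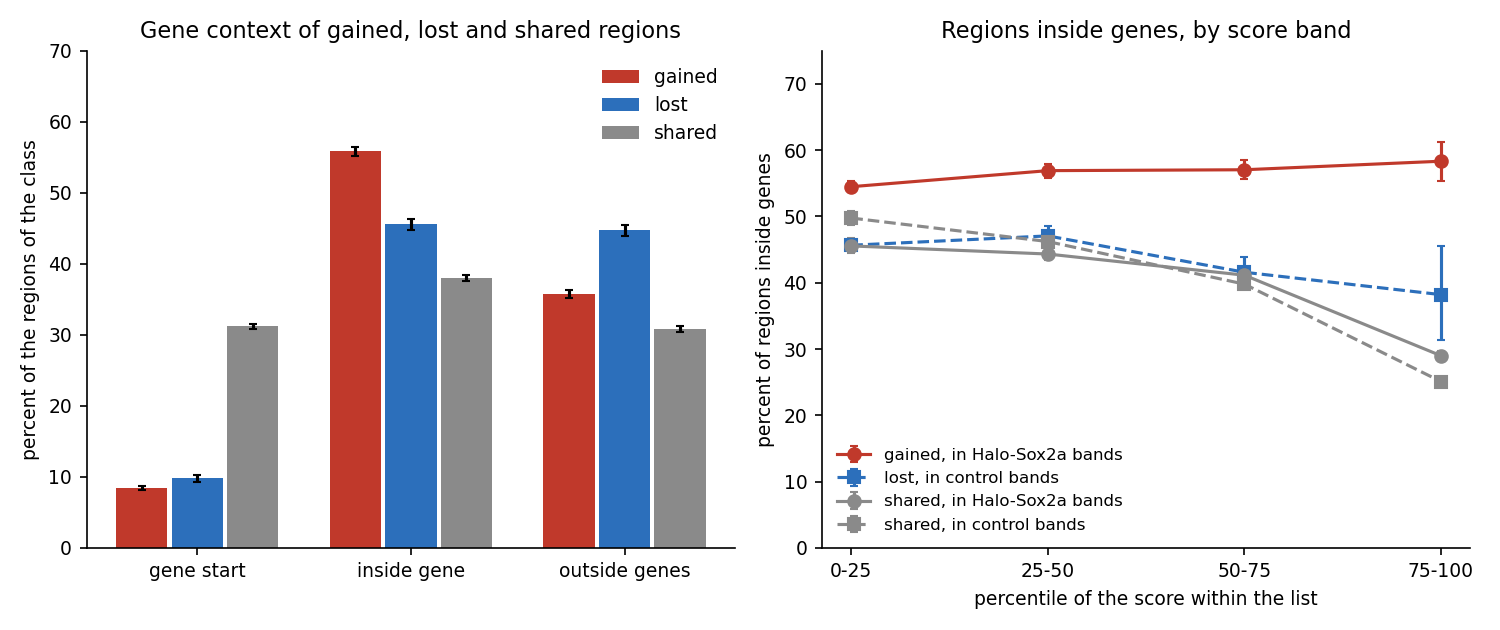
Left: percent of gained, lost and shared regions at gene starts, inside genes and outside genes, with Wilson 95% intervals as bars. Right: percent of regions inside genes by band of 25 score percentiles of the list named, where gained regions stay between 54.5% and 58.3% in every band while shared regions are at 29.0% in the top Halo-Sox2a band.

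The difference between gained and shared regions was also present among peaks of similar score. From the lowest to the highest band of 25 percentiles of the Halo-Sox2a scores, the share of gained regions inside genes was 54.5, 56.9, 57.0 and 58.3%, while the share of shared regions inside genes was 45.6, 44.3, 41.1 and 29.0%. In the top band, 7.07% of 1032 gained regions were at gene starts against 46.8% of shared regions, while in the lowest band it was 9.09% of 13432 gained against 15.7% of shared regions. For lost regions the order against shared ones depended on the band: in the lowest band of the control list 45.7% of lost and 49.8% of shared regions were inside genes, and in the top band 38.2% and 25.1%. Lost regions in the top band of the control list numbered 178, of which 59.0% (51.6 to 66.0) were outside genes and 5, or 2.81%, were at gene starts. Lost regions also lay in gene-poorer parts of the genome. The median number of protein-coding genes within 500 kb was 7 for lost, 9 for gained and 10 for shared regions, and 28.1% of lost regions had at most 3 such genes nearby against 16.0% of gained and 16.4% of shared regions. The distance to the nearest gene start exceeded 100 kb for 9.67% of lost and 5.07% of gained regions.

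The 10 gained regions with the highest scores ranged from 595 to 1249, and 7 of them lay inside protein-coding genes. The highest, chr2:3963817-3964799, scored 1249, which placed it 70th of the Halo-Sox2a list, and lay 52.9 kb from the start of Frmd4a, a FERM-domain scaffold gene. The next, chr3:121617976-121618709 with a score of 803, lay outside genes, 52.1 kb from 4930432M17Rik. A region inside Txndc12, an endoplasmic reticulum thioredoxin, scored 785. Regions inside Nudcd2 and inside Cox4i1, a subunit of cytochrome c oxidase, both scored 726. Those inside Srgap3 and the zinc-finger gene Zfp1 both scored 647. Clta, which encodes clathrin light chain A, held one of 617 and Arhgef28 one of 595. Each of these 10 lay at least 2.76 kb from the nearest control peak.

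Lost regions reached lower positions in their own list and lay more often far from genes. The highest, chr5:94007242-94007692, scored 473, rank 1656 of the control list, and was 12.9 kb from the predicted gene Gm6351 and 258 kb from the nearest Halo-Sox2a peak. A region inside Cfi, which encodes complement factor I, scored 385. The third, chr14:82466638-82467121 with a score of 342, had no protein-coding gene within 500 kb, its nearest being the protocadherin gene Pcdh17. A region 87.1 kb from Klf12, a Krüppel-like repressor, scored 331, and one inside Magi1, a tight-junction scaffold, scored 328. Of the 10 highest lost regions, 6 lay outside genes.

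Shared regions kept much of their order between the lists. Over the 55506 shared regions, Spearman's rho of the scores was 0.73, a description across regions that share 2 libraries. The agreement was closer at gene starts, with rho of 0.86 over 17307 regions, than inside genes (0.63 over 21093) or outside them (0.64 over 17106). Ranks were taken among shared regions, and the shift is the control rank minus the Halo-Sox2a rank, in percent of all shared regions, so that a positive shift is a higher place in Halo-Sox2a. The shift stayed within 25 percentage points for 43734 regions (78.8%). The 1067 regions more than 50 points higher in Halo-Sox2a resembled gained regions in context, with 54.6% (51.6 to 57.6) inside genes and 7.59% at gene starts. The 683 regions more than 50 points lower were near lost regions only in their share at gene starts, 11.1% (8.98 to 13.7) against 9.77%. Outside genes lay 50.7% (46.9 to 54.4) of them, above the 44.7% of lost regions. Inside genes lay 38.2% (34.6 to 41.9), below the 45.5% of lost and close to the 38.0% of all shared regions.

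**Figure D2:**
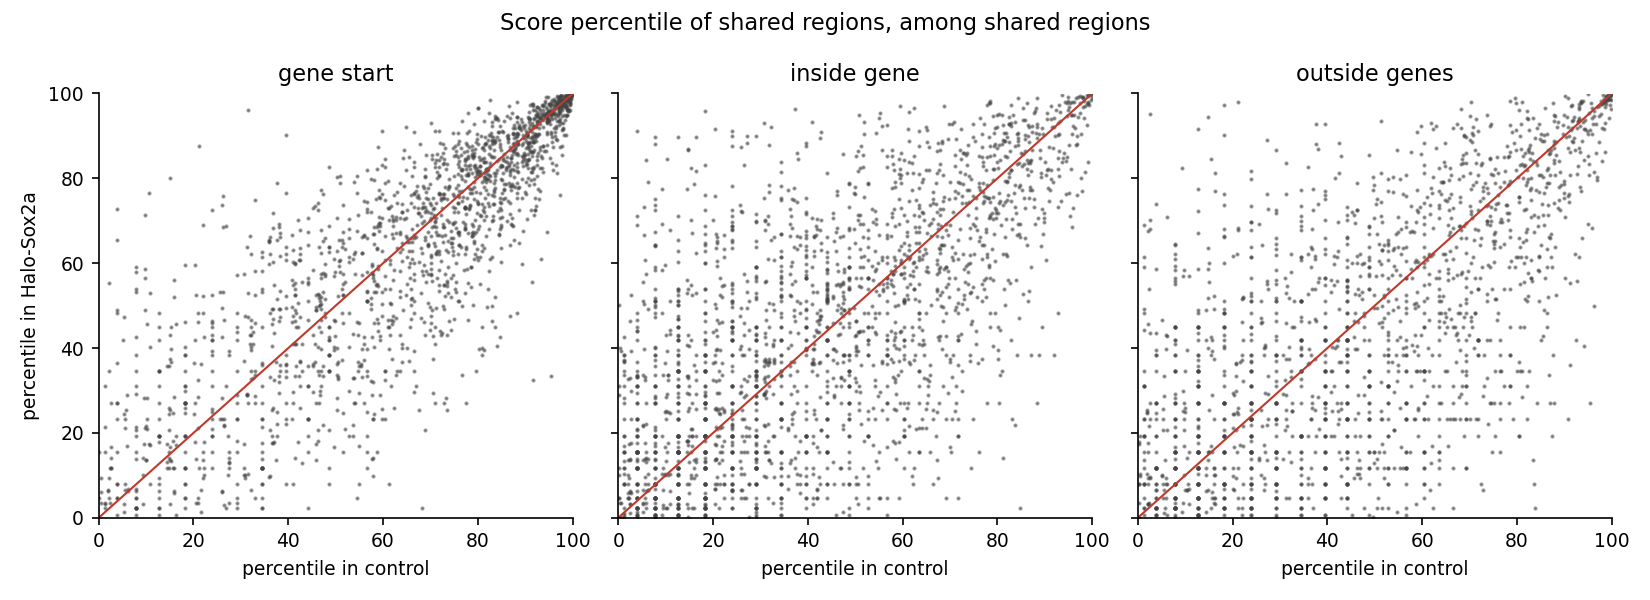
Percentile of each shared region in control (horizontal) and in Halo-Sox2a (vertical), ranked among shared regions, for 6000 regions drawn at random with a fixed seed and split by gene context; the line marks equal percentiles. Points at gene starts keep closest to the line (rho 0.86), and the columns and rows of points at low percentiles are tied scores.

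A large shift upward requires a low control rank, and the control scores of the 5 largest were 20 to 27. A region 58.3 kb from Tns3, which encodes the focal-adhesion protein tensin 3, scored 1014 in Halo-Sox2a and 20 in control, a shift of 98.3 points. Regions near Aqp11, an aquaporin, and Map4k3, a kinase, scored 774 and 716 in Halo-Sox2a and 20 each in control. A region in the noncoding gene Gm40376 scored 705 against 27, and one at the start of Gm16510, 16.9 kb from the GABA-synthesising enzyme gene Gad1, scored 569 against 20. The largest shift downward was inside the cadherin gene Cdh9, with 25 in Halo-Sox2a and 310 in control, a shift of -87.3 points. The other 4 were a region 1782 kb from Pcdh9 (32 against 318), one 98.9 kb from Eda2r on X (40 against 368), one inside Clip4 (32 against 292) and one inside the netrin receptor gene Dcc (25 against 259). Scores of the 2 lists are on separate scales, so these pairs are read only through their ranks.

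In the deposited lists, gained regions outnumbered lost ones on every autosome and on X, but not evenly. Over the genome there were 1.76 gained regions per lost region. Chromosome 8 had the lowest ratio of these chromosomes, with 1663 gained and 1253 lost regions, or 1.33 per lost region, and gained regions made up 57.0% (55.2 to 58.8) of its unshared regions. All other chromosomes together had 1.79 gained per lost region. Chromosome 19 had the highest ratio, with 776 gained and 323 lost regions, or 2.40, and gained regions made up 70.6% (67.8 to 73.2). Chromosomes 16 and 11 followed with 2.11 and 2.03. In lists of equal size the ends of the order were the same, with 0.806 on chromosome 8 and 1.47 on chromosome 19, but lost regions outnumbered gained ones on 7 of these 20 chromosomes (3, 8, 12, 13, 14, 18 and X, ratios of 0.806 to 0.997).

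**Figure D3:**
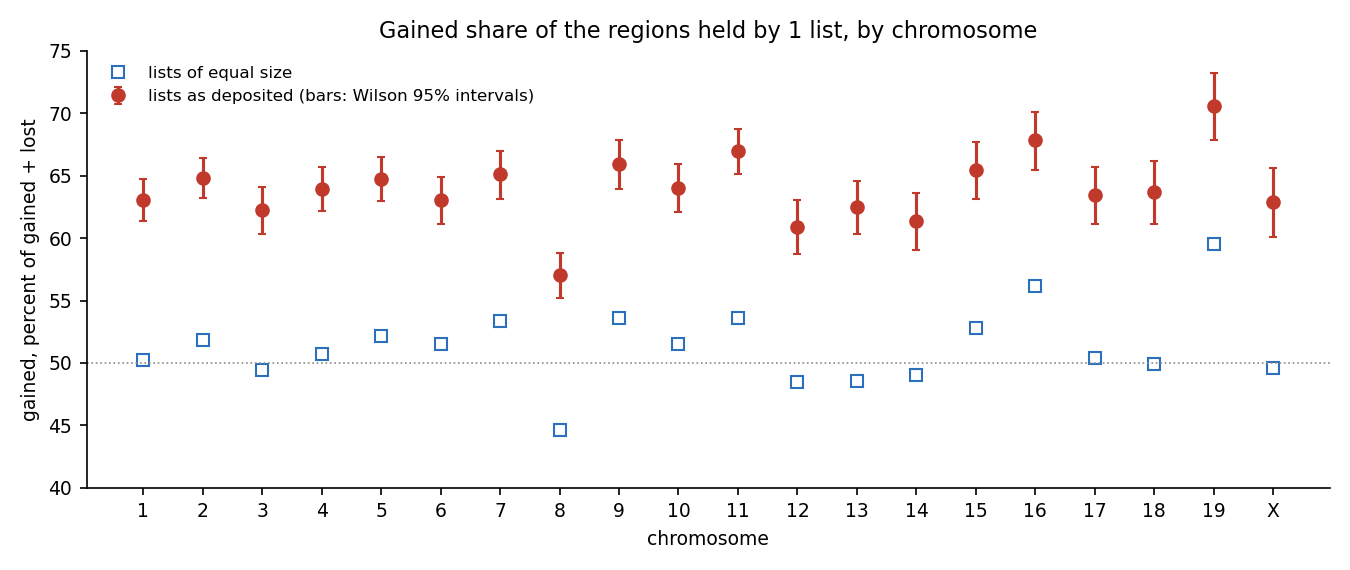
Gained regions as a percent of gained plus lost regions on each autosome and X, for the lists as deposited (filled, with Wilson 95% intervals) and for lists of equal size (open); the vertical axis starts at 40%. Chromosome 8 is lowest (57.0%) and chromosome 19 highest (70.6%) in the deposited lists.

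Promoters changed class rarely. Of 27025 genes with a promoter window, 12438 had a peak over it in both lists, 714 (2.64%) in the Halo-Sox2a list only, 490 (1.81%) in the control list only, and 13383 in neither. In all, 48.7% of the genes had a Halo-Sox2a peak over the window and 47.8% a control peak. Promoter peaks of both lists were high, with medians at percentiles 83.7 and 82.9, while those of 1 list were low, at 34.1 for gained and 29.3 for lost promoters. Part of this class came from the edge of a shared region: 471 of the 714 gained promoters and 352 of the 490 lost promoters touched no shared region. In lists of equal size the order turned, with 591 promoters gained and 626 lost.

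The highest-scoring gained promoters of protein-coding genes were those of BC049715 (score 1108), Tomt (755), the guanylate-binding protein gene Gbp3 (640), Ccdc194 (572) and Foxo3 (498), a forkhead factor downstream of insulin signalling. All 5 lay at the edge of a shared region whose control peak missed the window. The same held for the 5 highest lost promoters, P3h3 (303), Ccdc102a (245), Cacng2 (226), Foxe3 (214) and Kmt2c (212). Among promoters that touched no shared region, a set chosen after the values were seen, the highest gained were 4930522H14Rik (289), the complement receptor gene C5ar2 (231), Tfap2a (195), Madcam1 (184) and the neural factor gene Olig3 (178). The highest lost ones were Fbln5 (195), Cd244a (154), Ssbp4 (153), and Gm6034 and H2-T22 under 1 peak of score 146.

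The gene lists held 145 genes in 11 groups, of which 106 had a promoter window, and few of these promoters were of 1 list. Over all genes 2.64% of promoters were gained and 1.81% lost, and over protein-coding genes 2.06% and 1.56%. The small counts below were not tested against these shares. In the pluripotency list, none of 16 was gained and Sox2 alone was lost, with 13 in both lists and Pou5f1 and Tdgf1 in neither. Among 9 formative genes, which mark cells leaving the naive state, Otx2 was gained, with a low score of 32 that left it without a peak in lists of equal size, and the other 8 had peaks in both lists. The trophoblast list had 2 gained promoters of 9, Tfap2a (195) and Elf5 (128), an ETS factor of the trophoblast stem cell. Of 10 mesendoderm promoters, Lhx1 was gained (66) and Mesp1 lost (93), and 4 were in both lists. The neural list had 1 lost promoter of 14, the forebrain gene Emx2 (71). Cd3e, a T-cell receptor subunit, was lost (34) among 6 blood promoters. No promoter of the primitive endoderm (7), LIF-STAT3 (10), housekeeping (11) or fibroblast (5) lists was of 1 list, and all 11 housekeeping promoters had peaks in both. The promoters of Sox2, Elf5 and Mesp1 touched a shared region. When the window was widened to 1 kb on both sides of the start, Sox2, Otx2, Elf5, Emx2 and Mesp1 had peaks of both lists, while Tfap2a and Lhx1 remained gained.

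Hox genes, which pattern the body axis, and chemoreceptor genes were counted as further families. Against 46.0% of all genes with a promoter peak in both lists, 2.64% gained and 1.81% lost, of 25 Hox genes with a window 10 promoters were in both lists, 3 were gained (Hoxa11, Hoxa13 and Hoxd8, scores 26 to 51), and 5 were lost (Hoxa11os, Hoxa2, Hoxa5, Hoxb1 and Hoxb4, scores 36 to 125). Gained and lost promoters stood beside each other in the HoxA cluster, and of these 8 only Hoxa13, Hoxa2 and Hoxb1 touched no shared region. Of 1267 olfactory and vomeronasal receptor promoters, 1259 had no peak in either list.

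Pluripotency genes had more gained regions per lost region around them than genes in general, and more of both kinds per gene. Within 50 kb of the 25 pluripotency genes lay 116 gained, 38 lost and 205 shared regions, each counted once, or 3.05 gained per lost region. The ratio was 1.88 within 50 kb of any gene and 2.03 for protein-coding genes. Gained regions outnumbered lost ones around 22 of the 25 genes and lost outnumbered gained around none, against 50.2% and 19.1% of all genes and 55.5% and 18.5% of protein-coding genes. Lost outnumbered gained around no primitive endoderm or blood gene either, while gained outnumbered lost around 10 of 12 and 3 of 8. The housekeeping list was at 8 and 4 of 15. A gained region lay within 50 kb of 24 of the 25 pluripotency genes and a lost one within 50 kb of 22, against 69.3% and 54.4% of all genes. The medians were 2 lost and 8 shared regions a gene, against 1 and 3 over all genes. Presence of a gained or lost region was not particular to this list. It held for 12 and 10 of 12 trophoblast, 14 and 14 of 15 housekeeping, and 18 and 17 of 19 Sox family genes. It was lower, at 14 and 10 of 18, for neural genes and, at 7 and 6 of 10, for fibroblast genes. Lost regions were 10.6% of the regions near pluripotency genes, 15.1% near any gene and 14.1% near protein-coding genes. The share was 7.14% for LIF-STAT3, 10.3% for neural, 11.1% for blood, 11.3% for primitive endoderm and 11.7% for mesendoderm genes. It was 13.9 to 15.4% for the other 5 lists. The gained per lost ratio of pluripotency genes stayed above that of all genes in lists of equal size, at 2.14 against 1.12. Shared regions near pluripotency genes were also placed higher in Halo-Sox2a, with a median rank shift of 4.08 points (quartiles -5.14 to 15.3) against -0.15 near any gene. Of the 205, 125 (61.0%) were higher, against 49.4% near any gene. The formative list came closest, with a median shift of 3.54 points and 58 of 104 higher, while the neural list was at -2.49.

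The LIF-STAT3 list, which holds the receptor, kinase and targets of the LIF signal, had 30 gained and 9 lost regions, a ratio of 3.33, and the primitive endoderm list had 36 and 12, a ratio of 3.00. Their shared regions went different ways, with median shifts of -3.70 for LIF-STAT3 and 3.08 for primitive endoderm. The formative list had 38 gained and 23 lost regions (1.65), the neural list 29 and 15 (1.93), the mesendoderm list 21 and 12 (1.75), the trophoblast list 41 and 20 (2.05) and the housekeeping list 47 and 26 (1.81). Blood and fibroblast markers had 19 gained and 9 lost, and 12 gained and 8 lost. The Sox family stood at 67 and 35, or 1.91. In lists of equal size, where the ratio of all genes was 1.12, it was 2.23 for primitive endoderm, 2.09 for LIF-STAT3, 1.31 for housekeeping, 1.17 for blood and 1.16 for neural genes. It was below that of all genes for the trophoblast (1.11), Sox family (1.09), mesendoderm (0.786), fibroblast (0.75) and formative (0.677) lists, and lost regions outnumbered gained ones in the last 3. These counts are small and describe 2 libraries, and neighbouring regions are not independent.

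**Figure D4:**
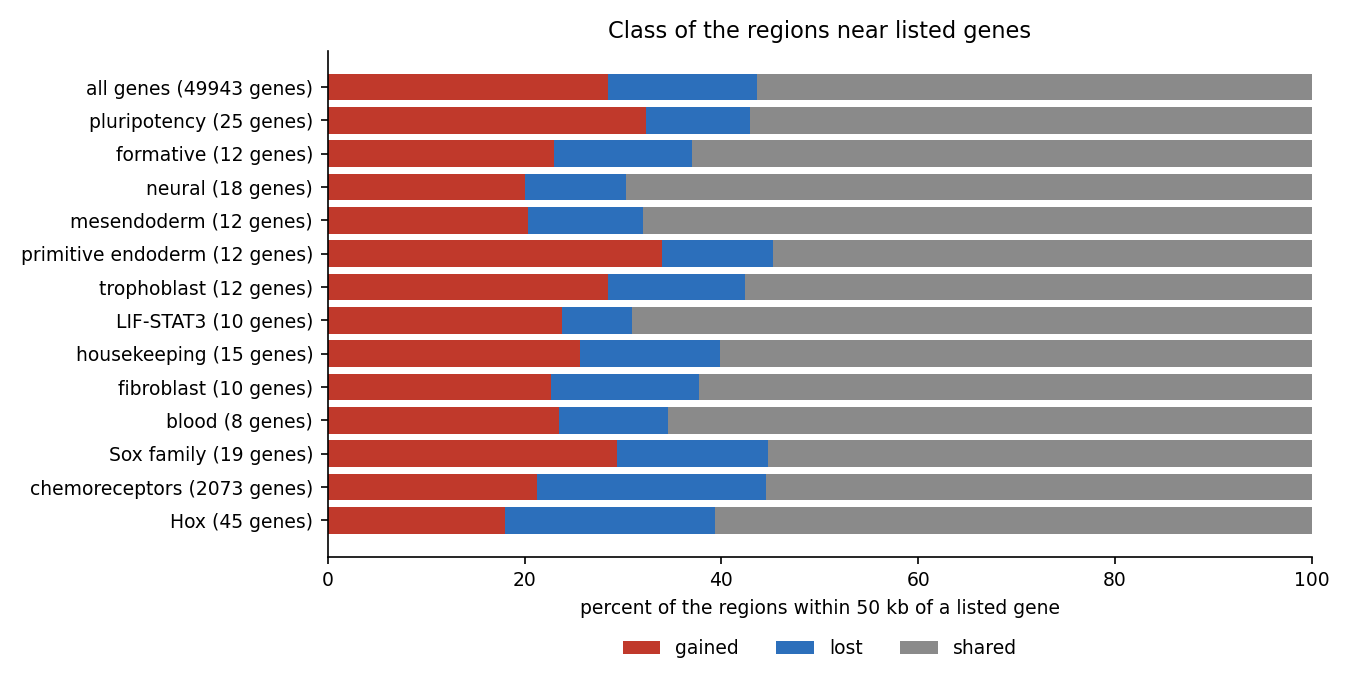
Gained, lost and shared regions as percents of all distinct regions within 50 kb of the genes of each list, with all genes at the top. Gained regions make up 32.3% near pluripotency genes and 18.0% near Hox genes, where lost regions make up 21.3%.

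Chemoreceptor and Hox genes were at the other end. Near 2073 chemoreceptor genes, 311 regions were gained and 340 lost, a ratio of 0.915, and lost regions were 23.2% of the regions there against 15.1% near any gene. Near 45 Hox genes, 22 were gained and 26 lost, a ratio of 0.846. Equal list sizes took these ratios to 0.518 and 0.405. The median shift of shared regions was -3.13 points near chemoreceptor genes and 0.63 near Hox genes.

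At single pluripotency loci the gained regions were mostly low and the changes in rank were mixed. Near any gene, 49.4% of shared regions were placed higher in Halo-Sox2a. Around Pou5f1 there were 16 regions, 7 gained, 2 lost and 7 shared, and 3 of the 7 shared regions were placed higher in Halo-Sox2a, with a median shift of -1.86 points. The shared region that ends 0.312 kb before the gene, chr17:35503904-35505720, scored 277 in Halo-Sox2a and 109 in control, a shift of 24.1 points, and a gained region of score 92 lay inside the gene. Around Nanog, 13 of 20 regions were shared and 10 of these 13 were placed higher in Halo-Sox2a, with a median shift of 17.5 points. The highest of them, 4.26 kb before the gene at chr6:122702264-122703234, scored 823 and 456, and stood near the top of both lists, with a shift of 2.11 points. Esrrb, an orphan nuclear receptor of the naive network, had 9 gained and 2 lost regions of 26, and 11 of its 15 shared regions were placed higher. Tfcp2l1, another naive factor, had 4 gained and 1 lost region of 13, and all 8 shared regions were placed higher, with shifts of 0.35 to 56.5 points. The region inside Tfcp2l1 at chr1:118642368-118643191 scored 611 against 142, a shift of 33.5 points. Of the other pluripotency genes, 2 were picked after their values were seen: Nr5a2, a nuclear receptor, had 11 gained and 2 lost regions beside 3 shared ones, and Tet1, a methylcytosine dioxygenase, had 9 gained and 2 lost. Zfp42 had 2 gained and 1 lost region of 15, with 5 of 12 shared regions placed higher and a median shift of -0.56 points. Klf4 had 2 gained and 2 lost of 9, with 4 of 5 shared regions placed higher.

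Other chosen loci showed no common direction. Fgf4, a growth factor gene with a SOX-OCT enhancer, had 4 gained and 2 lost regions of 18, and 9 of 12 shared regions were placed higher. Socs3, a target and inhibitor of the LIF signal, had 6 gained and no lost regions of 15, but 7 of its 9 shared regions were not placed higher, and the median shift was -18.6 points. Otx2 and Cdx2 each had 3 shared regions placed higher, of 9 and 10. Around Sox1, an early neural gene, there were 3 gained and 1 lost of 14 regions, with a median shift of -14.0 points over 10 shared regions. Around Fgf5, a formative marker, a gained region 15.8 kb from the gene, chr5:98292825-98293854, scored 359. Pax6, a neural and eye factor, had 0 gained and 1 lost region of 10.

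The highest nuclear peak of the Halo-Sox2a list lay in the Sox2 gene. This peak covered chr3:34650416-34651365, from 421 to 1370 bp after the start of the gene, and its score of 12707 was rank 2 of the list, between the 2 peaks on the mitochondrial genome. The control peak covered chr3:34649641-34650963, from 354 bp before to 968 bp after the start, and scored 120, rank 25738. Thus the Halo-Sox2a list had no peak over the Sox2 promoter printed above, whereas the control list did. DNA of an inserted transgene and of the gene itself cannot be told apart in a peak list. Around Sox2, 4 regions were gained, 2 lost and 5 shared. Pgk1, a glycolytic enzyme gene whose promoter often drives selection markers in vectors, had a promoter score of 1916 (percentile 99.98) in Halo-Sox2a and 432 (96.9) in control.

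Gained regions gathered in some long genes and lost regions in others, as the next genes, chosen after their values were seen, show. Of 14997 protein-coding genes that held a region, 5808 (38.7%) held more gained than lost regions and 2086 (13.9%) held more lost. A surplus of at least 10 gained regions was found in 34 genes and a surplus of at least 10 lost regions in 3. Frmd4a held 22 gained, 0 lost and 9 shared regions, and Msi2, an RNA-binding protein of stem cells, held 25, 3 and 18. Snd1 held 20 gained and 1 lost, Apbb2 held 17 and 0, and the neuron navigator gene Nav2 held 23 and 6. The gained regions of Frmd4a were spread over 464 kb with a median spacing of 12.9 kb and scores of 19 to 147.

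Lost regions were packed differently in Dtwd2 and Cbfa2t2. Dtwd2, an RNA-modification gene on chromosome 18, held 19 lost regions, 1 gained and 4 shared, and the lost ones were spread over 48.5 kb with a median spacing of 2.32 kb. Cbfa2t2, which encodes a transcriptional corepressor, held 15 lost, 0 gained and 14 shared regions, the lost ones over 49.9 kb with a median spacing of 1.69 kb. Their scores were at most 59 in Dtwd2 and 42 in Cbfa2t2, and the median was 20 in both. In contrast, the 18 lost regions of Gpc5, a glypican gene, were 50.3 kb apart at the median, beside 7 gained ones. Stpg2 and Iqcm held 9 lost and 0 gained regions each. Lists of equal size had 16 gained regions in each of Frmd4a and Msi2 and 19 and 20 lost regions in Dtwd2 and Cbfa2t2. The lost count of Cbfa2t2 rose because weak Halo-Sox2a peaks of shared regions were dropped, which took its shared regions from 14 to 9. Keeping only peaks at or above percentile 50 of their own list, merged anew, gave 1 lost region in Dtwd2 and Cbfa2t2 together. It gave 13 gained regions in Frmd4a and Msi2 together. These counts include shared regions whose other peak fell under the limit. None of the lost regions described above passed it, as they reached at most percentile 35.8 in Dtwd2 and 22.5 in Cbfa2t2.

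**Figure D5:**
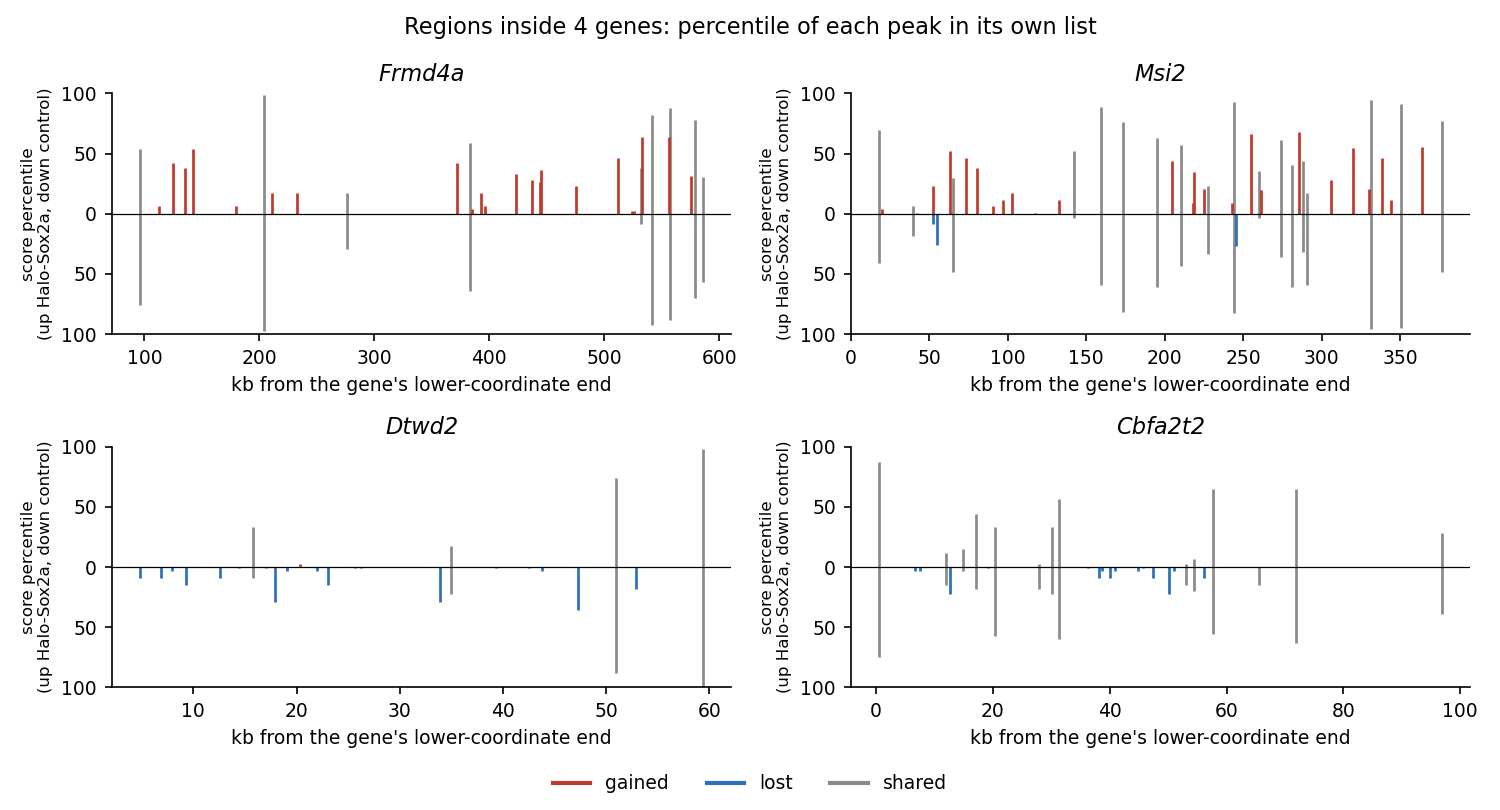
Regions inside Frmd4a, Msi2, Dtwd2 and Cbfa2t2 by distance from the gene's lower-coordinate end in kb; lines upward give the percentile of the Halo-Sox2a peak and lines downward that of the control peak, each within its own list. Gained regions are spread along Frmd4a and Msi2, while the lost regions of Dtwd2 and Cbfa2t2 are low and lie within 48.5 and 49.9 kb.

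Motifs were counted in 32817 distinct promoter windows of 300 bases, on both strands, because no genome sequence was used here; regions away from promoters were not searched. A SOX motif, ACAAAG or ACAATG, was in 28.6% of all windows, in 35.0% (32.0 to 38.1) of gained windows, in 25.7% (22.5 to 29.2) of lost windows, in 18.5% of windows with peaks of both lists and in 37.0% of windows with none. Base composition moved with these shares, as the median GC content was 53.3% in gained, 55.7% in lost, 62.0% in shared and 46.7% in unoccupied windows. Within bands of GC content under 50%, from 50 to 60% and from 60% up, gained windows held a SOX motif in 47.8, 34.6 and 19.2%, lost windows in 39.1, 25.7 and 14.9%, and all windows in 41.3, 27.2 and 13.1%. The intervals of gained and lost windows overlapped in each band, while that of gained windows lay above that of all windows in each band (42.3 to 53.5 against 40.4 to 42.1, 30.1 to 39.4 against 26.4 to 28.1, and 14.7 to 24.8 against 12.5 to 13.8). All windows include those with peaks of both lists, which held a SOX motif in 37.5, 24.1 and 12.7%. Windows with no peak in either list held one in 41.6, 29.6 and 15.8%. Their intervals (40.7 to 42.5, 28.4 to 30.9 and 13.3 to 18.7) overlapped those of gained windows in each band. The octamer ATGCAAAT was in 1.60% of gained and 0.912% of lost windows against 1.74% of all, and the KLF motif CCACACCC in 5.02% of gained, 3.19% of lost and 3.56% of all. The core of the CTCF motif was in 3.31, 2.13 and 2.43%, and the GC box GGGCGG in 35.4% of gained and 39.5% of lost windows against 66.6% of windows with peaks of both lists.

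The composite SOX-OCT motif, a SOX site joined to an octamer-like site, which can overlap an octamer or a SOX match, was in 12 windows, 9 of them with peaks of both lists and 3 with none. The 9 belonged to Nanog, Exoc1, Nrarp, Idua, Pipox, Astn1 and Gm34201, with Nanog and Exoc1 counted at a pair of starts each. Of 937 gained windows 0 held it, which allows a share of up to 0.408% (Wilson), and of 658 lost windows 0 held it, which allows up to 0.580%. Of these 7 promoters, 5 stood at a lower percentile in Halo-Sox2a than in control and 2 at a higher one. Of all 12438 genes with promoter peaks in both lists, 5875 stood lower in Halo-Sox2a and 6563 higher. The difference was not tested, and 7 promoters are few. Percentiles of single promoters follow. That of Nrarp scored 428 in Halo-Sox2a and 184 in control, at percentiles 92.3 and 79.1, and that of Pipox 509 and 320, at 95.01 and 92.60. Those of Astn1 and Gm34201 were at percentiles 38.1 and 28.2 against 67.1 and 72.9 in control, and those of Nanog, Exoc1 and Idua at 54.7, 96.1 and 84.6 against 63.6, 97.5 and 93.5. A match is a description of letters and not a bound site.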

How the data were processed

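Accessible chromatin was measured by ATAC-seq in 1 Halo-Sox2a and 1 control library of mouse embryonic stem cells, and groups came from the labels. The authors deposited 1 peak list a library, with position, name and score. The deposited score is a whole number whose scale is not given in the sources used here, so it was ranked and filtered only within a list. The build is mm10 (GRCm38), and STAR, SAMtools, MACS2 3.0.0a7, MACS3 and deepTools 3.3.0 are named, per the submitters' processing notes; whether read ends were shifted for the transposase is not given in the sources used here. In each list, 51 peak numbers are skipped. Positions were converted to 1-based coordinates.

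Peaks overlapping by at least 1 bp were merged. A region's context was a gene start (edge within 1 kb), otherwise inside a gene (midpoint), otherwise outside genes, from RefSeq tables of GRCm38.p6 with 49997 genes and 32851 promoter windows of 27025 genes. The gene table holds no strand, exons or UTRs, so either end was used for genes with no window. All 145 listed genes were found. Ranks ran within a list, or among shared regions for shifts. Lists of equal size kept 72638 peaks, with ties at the last score of 33 broken at random with a fixed seed. Where peaks were filtered, classes were assigned anew, so a shared region whose other peak was dropped became gained or lost. Shares have Wilson 95% intervals, which cover counting error only; depth is unknown.

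Regions, genes and lists were chosen with earlier results of these data known. Named were the 10 highest gained and lost regions, the 5 largest rank shifts of shared regions each way outside Sox2, the 5 highest gained and lost coding promoters, 18 loci, and listed genes with gained or lost promoters; further genes are marked as chosen after their values were seen. Region merging and motif search were tested on simulated data. Alternatives covered the overlap, the score limit, equal list sizes, the start and locus distances, autosomes, and coding genes only; equal list sizes by chromosome, near gene lists and inside single genes were added after seeing the data. Python 3.11.15, numpy 2.4.6, pandas 2.3.3 and scipy 1.17.1 were used. The Halo-Sox2 list was not used here.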

Additional observations from a re-analysis of the deposited data

How the results depend on the processing

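No paired analysis was possible because each group holds 1 library. A SOX motif search around the midpoints of regions was not run, as no genome was used. Merging peaks up to 500 bp apart put 7.21% of gained, 8.34% of lost and 30.8% of shared regions at gene starts, with rho of 0.74; an overlap of at least 50% of the shorter peak gave 8.74% of gained and 10.5% of lost. Lists of equal size gave 10.4% of lost and 32.3% of shared regions at gene starts, with rho of 0.72. Peaks at or above percentile 50, merged anew, gave 13518 gained, 7221 lost and 29020 shared regions, with 13.0, 15.8 and 43.2% at gene starts and rho of 0.69. The gained and lost classes there include regions shared in the full lists whose other peak fell under the limit. Of regions gained in the full lists, 7.45% at percentiles 50 to 75 and 7.07% at 75 to 100 were at gene starts. Of regions lost in the full lists, 8.42 and 2.81% were. A start distance of 2.5 kb gave 15.7, 16.1 and 37.1%, and protein-coding genes only gave 3.98, 4.99 and 25.5%, with 360 promoters gained and 272 lost. In each of these settings shared regions had the largest share at gene starts and lost regions a larger one than gained regions. The cause of the other shifts was not tested. Of the recomputed values, 27 of the main results and 80 of the others stayed within their interval or within 1.5 times the count, and 24 and 26 did not. The order of gained and lost promoters turned with lists of equal size, at 591 and 626. With no read depth, a peak missing from a list cannot be told from one just under the threshold.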

Other observations

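Regions were also counted in windows of 1 Mb, with 1751 of 2581 windows holding more gained than lost regions and 683 holding more lost. The largest gained surpluses were on chromosome 11 around Msi2, with 45 gained and 9 lost regions, and on chromosome 5 around Apbb2 and Limch1, with 38 and 2. On chromosome 16 around Gsk3b, which encodes the kinase that CHIR99021 inhibits, there were 35 gained and 3 lost regions. The largest lost surpluses were in a window of chromosome 12 with no protein-coding gene in the table, with 22 lost and 4 gained regions, in the window of chromosome 18 that holds Dtwd2 and Dmxl1, with 23 and 8, and in an olfactory receptor cluster on chromosome 7, with 17 and 2. These windows were chosen after their values were seen.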
